A study of Mus musculus with 12 samples.

Results

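Gene expression was measured in primary calvarial osteoblasts labelled PAR2 knockout (KO), kept for 4 days in medium that prostate tumour cells had conditioned or in the same medium without conditioning. The comparison takes the samples titled KO MDA (3, called conditioned here) against those titled KO Control (3, unconditioned), which are 6 of the 12 samples of the series. The other 6 are titled wild type (WT), though a sample among them carries the KO genotype label and was kept by its title. They enter the shared fit and are otherwise used only where the KO response is set beside the WT response. All cells came from the skull bones of neonatal C57Bl/6J mice, and the KO samples carry the genotype label F2rl1 -/-, a deletion that the unconditioned KO cells share with the conditioned ones. Cells were freed with collagenase and cultured for 48 h in DMEM, then moved to BRFF-HPC1 medium with 20% serum, either plain or exposed first to MDA-PCa-2b cells for 48 h. MDA-PCa-2b is a human prostate cancer line from a bone metastasis. The labels call the cells osteoblast-like and give no sex, no number of animals per culture and do not say whether the samples came from different animals. The p-values therefore cover only how these samples vary, and that variation may be technical. Sex-linked transcripts, given at the end, set the library numbered 2 in the deposited table apart in both KO groups.

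PAR2 is a cell-surface receptor that serine proteases switch on by cutting its outer end, which exposes a tethered ligand. Osteoblasts carry it, and tumour cells release proteases that can act on it. Prostate cancer spreads mainly to bone, where it often leads to abnormal bone formation, and conditioned medium is used to ask how secreted tumour products alter bone-forming cells. The KO cells are labelled as lacking the receptor, and the comparison describes the response of cells so labelled.

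Libraries are numbered 0, 1 and 2 within a group, as in the deposited table, and every set of 3 values below is in that order. The 6 KO libraries held 15610386 to 16956754 fragments. Library 0 of each KO group stood apart from the other two of its group. Among 13687 genes with a mean of at least 1 CPM (fragments per 1000000 of the TMM-scaled library), conditioned library 0 was more than 2-fold above both others for 802 genes and more than 2-fold below both for 717, together 11.1%, against 0.205% and 1.13% for conditioned libraries 1 and 2. Unconditioned library 0 did so for 6.26% of these genes, against 0.175% and 0.738% for unconditioned libraries 1 and 2. On the first principal component of all 11 distinct libraries, which held 45.4% of the variance, the unconditioned KO libraries lay at -38.81, -36.49 and -30.99 and the conditioned ones at -5.77, 67.53 and 82.73. The conditioned WT libraries lay at 16.27, 27.66 and -10.8, so conditioned KO library 0 fell within their range and KO libraries 1 and 2 above it.

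Markers of osteoblasts were present, with their mature forms missing. Runx2, the lineage's master transcription factor, had 91.7, 85 and 78.3 CPM without conditioning and 85.1, 71.1 and 68.3 CPM with it, and Sp7, which acts after Runx2, had 39.6, 31 and 22.9 against 29.6, 3.08 and 1.68 CPM. Bglap (osteocalcin) and Ibsp (bone sialoprotein), made by mature osteoblasts, were under 1 CPM in every KO library. The 9 macrophage markers measured summed to 26.3, 20.8 and 13.2 CPM without conditioning and to 32.8, 18.0 and 8.67 CPM with it, while 7 osteoblast markers summed to 7696 CPM or more in every KO library, most of it Col1a1. In conditioned library 2 Col1a1 alone was 7599.8 of the 7696 CPM, so the sum says little about the other osteoblast markers. Over the KO libraries, smooth muscle and pericyte markers summed to 357 to 2111 CPM and cartilage markers to 733 to 2504 CPM.

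F2rl1, the targeted gene (chromosome 13, 95511730 to 95525240, GRCm38), had few fragments in every library, and its level did not mark the KO libraries as knockout. It stood at 2.16, 2.26 and 3.01 CPM without conditioning and 1.87, 0.77 and 0.63 CPM with it, and between 0.874 and 1.59 CPM in the WT libraries. The unconditioned KO libraries were thus all above the WT libraries, and the conditioned KO libraries lay on both sides of the WT range. All 3 conditioned KO values were below the unconditioned ones, but the change did not pass the test (log2 change -1.19, SE 0.42, adjusted p = 0.0743). Without conditioned library 0 it was called (-1.81, adjusted p = 0.0034). Fragments are given for the gene as one unit, with no view of the deleted part, so genotypes are given as labelled. F2r, which encodes the thrombin receptor PAR1, stood at 229.8, 322 and 286 CPM and 226, 254 and 245 CPM (log2 change -0.21, SE 0.14, adjusted p = 0.308). The remaining family members F2rl2 and F2rl3 had at most 5 fragments in any KO library. Of the 20 genes of the PAR and coagulation list, 13 were tested, none was called higher and 1 lower, with a median log2 change of -0.46. The member called was F3, tissue factor, which starts clotting and can form a complex that cleaves PAR2. It had 172, 298 and 302 CPM without conditioning and 158, 87.1 and 85.9 CPM with it (log2 change -1.22, SE 0.28, adjusted p = 0.0205), and the groups did not overlap. Thbd, thrombomodulin, had 822, 793 and 678 against 873, 1312 and 1325 CPM (log2 change 0.61, SE 0.22, adjusted p = 0.0787), and Tfpi2, a protease inhibitor, 30.3, 24.9 and 20.2 against 18.8, 9.36 and 7.46 CPM (log2 change -1.08, SE 0.36, adjusted p = 0.0613). With the library number as a block, Tfpi2 was called (-1.17, adjusted p = 0.0233, and adjusted p = 0.0573 over both genotypes). Without either unconditioned library 1 or 2, or without either conditioned library 1 or 2, no member of this list was called.

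Across all genes the response to the conditioned medium was broad in the KO cells. Of 15197 genes tested, 1338 (8.8%) were higher and 1207 (7.94%) lower in the conditioned libraries (edgeR quasi-likelihood test, Benjamini-Hochberg adjusted p under 0.05). These shares of 8.8% and 7.94% are the background of the list counts below that come from this fit. List counts from other fits have the all-gene counts of the same fit as background, which are given below. Of the genes called, 579 and 590 changed more than 2-fold. The median of all tested genes was 0.01 on the log2 scale. The 3 conditioned libraries lay above all 3 unconditioned ones for 15.3% of the tested genes and below all of them for 2281 genes. Genes called higher stood, at the median, 0.48, 0.99 and 1.09 log2 units above the unconditioned mean in conditioned libraries 0, 1 and 2, and genes called lower at -0.67, -1.06 and -1.19. Conditioned library 0 moved least of the 3 for 85.9% of the genes called higher and 78.6% of those called lower, against 66.7% of all tested genes. List medians by library below also use the mean of all 3 unconditioned libraries, not the library of the same number. They do not remove a shift shared by both libraries of number 0. In bulk RNA, fewer cells of a type and less RNA per cell cannot be told apart.

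**Figure D1:**
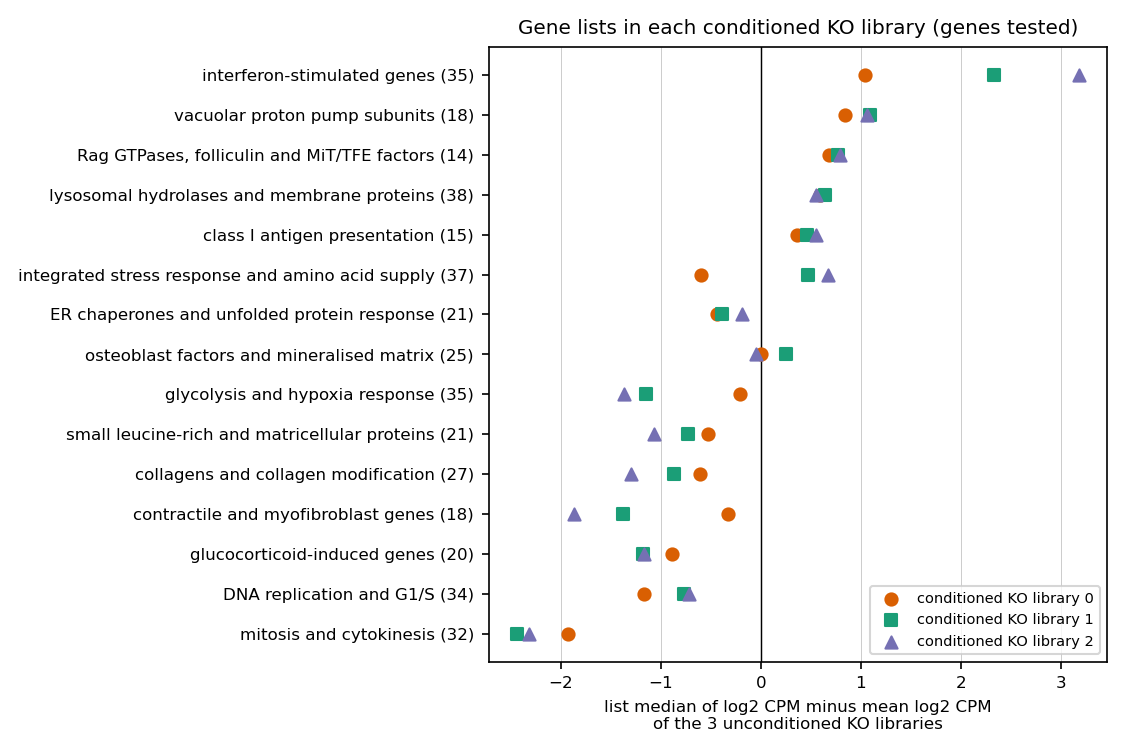
Median of 15 gene lists in each conditioned KO library, as log2 CPM minus the mean log2 CPM of the 3 unconditioned KO libraries (horizontal axis), with the number of genes tested in brackets. Interferon-stimulated genes reached 1.04, 2.33 and 3.18 in libraries 0, 1 and 2 and mitosis genes -1.93, -2.44 and -2.32, while contractile, hypoxia and stress-response lists sat near or across 0 in library 0 from where they lay in libraries 1 and 2.

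These counts depended on single libraries. Without conditioned library 0, 3317 of 15158 genes were higher and 3168 lower. Without both libraries of number 0, 3643 and 3618 of 15123 were (a choice made after seeing the data). The all-gene counts of each fit are the background of list counts from that fit. Leaving out any 1 of the other libraries of number 1 or 2 left 211 to 375 genes higher and 114 to 285 lower, and without unconditioned library 0 there were 1539 and 1658. With the library number as a block in the KO libraries only, a choice made after seeing the data, 1693 genes were higher and 1842 lower, and with the block over both genotypes 887 and 965. Where a gene is said to be called or lost with the block, the KO block is meant, and the adjusted p over both genotypes follows. Of the 173 called genes named in this text, 57 were called in each of the 6 fits that left out 1 KO library. They included 6 interferon-stimulated genes (Ifit1, Isg15, Usp18, Irf7, Igtp and Ifi35), Lamp1, Gpnmb, Atp6ap2 and Rragd of the lysosome, and Serpina3n, Fkbp5, Tsc22d3, Pdk4, Ppargc1a, Apoe and Wnt4.

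Interferon-stimulated genes made up 5 of the 12 largest rises among called genes with a mean of at least 5 CPM. Type I interferon binds a receptor of Ifnar1 and Ifnar2 and acts through a complex that includes Stat2 and Irf9 and switches on a set of antiviral genes. Of 36 interferon-stimulated genes 35 were tested, and 34 were higher and none lower, against 8.8% of all genes called higher. Their median log2 change was 2.64, and 32 of them had all 3 conditioned libraries above all unconditioned ones, as did 15.3% of all tested genes. The count was 35 without conditioned library 0 but 8 without unconditioned library 1, 16 without unconditioned library 2, 11 without conditioned library 1 and 16 without conditioned library 2. In the same order 3317, 211, 256, 229 and 375 of all genes were called higher, with 15083 to 15158 tested. The promoters of Ifit1, whose protein binds foreign RNA, and Isg15, a ubiquitin-like modifier, are shown as the list members with the largest rise whose windows hold the interferon response motif, with the motif in capitals, which is 2 copies of GAAA set 2 bases apart (searched on both strands). The windows run from 250 bases before to 50 after the annotated start (RefSeq, GRCm38.p6), 5′ to 3′ on the strand of the gene.
Ifit1, chr19:34640639-34640938, plus strand: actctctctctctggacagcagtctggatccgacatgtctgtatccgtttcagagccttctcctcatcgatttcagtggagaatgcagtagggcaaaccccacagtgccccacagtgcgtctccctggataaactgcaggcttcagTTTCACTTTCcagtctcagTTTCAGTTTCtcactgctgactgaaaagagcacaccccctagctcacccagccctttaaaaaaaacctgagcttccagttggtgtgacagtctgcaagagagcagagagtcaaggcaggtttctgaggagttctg
Isg15, chr4:156200769-156201068, minus strand: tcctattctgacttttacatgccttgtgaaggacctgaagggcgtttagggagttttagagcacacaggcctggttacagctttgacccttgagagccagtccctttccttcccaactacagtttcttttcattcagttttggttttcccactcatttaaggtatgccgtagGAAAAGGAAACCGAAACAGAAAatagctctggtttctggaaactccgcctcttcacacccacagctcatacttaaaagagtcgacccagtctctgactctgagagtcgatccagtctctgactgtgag

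The promoter window of Ifit1 held 2 matches and that of Isg15 held 3, which overlap each other. RefSeq promoters were matched for 25 of the 35 genes, in 28 windows. The motif was found in 15 of these windows (53.6%) and in 3.44% of all 32851 mouse promoter windows of the same length. A match describes the letters of the window and does not show binding.

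Ifit1 (chromosome 19, 34640889 to 34650009) stood at 8.06, 7.46 and 7.53 CPM without conditioning and at 44.9, 351 and 420.2 CPM with it (log2 change 5.14, SE 0.84, adjusted p = 0.0081). Isg15 (chromosome 4, 156199424 to 156200818) stood at 6.75, 4.45 and 7.01 and 30.8, 229 and 308 CPM (log2 change 4.96, SE 0.81, adjusted p = 0.00798). Every conditioned library lay far above the unconditioned ones, and library 0 rose least. Usp18, which removes Isg15 from its targets and damps signalling from the interferon receptor, went from 5.24, 2.12 and 6.61 to 24, 93.1 and 126 CPM (log2 change 4.11, SE 0.66, adjusted p = 0.0079). Rsad2 (viperin), an antiviral enzyme, went from 0.262, 0.685 and 0.393 to 1.81, 13.3 and 23.6 CPM (log2 change 4.84, SE 0.88, adjusted p = 0.0104), and Mx2, an antiviral GTPase, from 0.982, 0.822 and 1.24 to 3.08, 25.8 and 32.7 CPM (log2 change 4.32, SE 0.84, adjusted p = 0.012). In each of these genes conditioned library 0 lay between the unconditioned group and conditioned libraries 1 and 2. Irf7, a transcription factor that drives interferon genes themselves, was less spread, with 7.01, 5.68 and 8.91 against 23.5, 34.6 and 37.9 CPM (log2 change 2.15, SE 0.34, adjusted p = 0.00706). Ifi35 rose evenly, with 19.5, 17.1 and 20.3 against 32.9, 33.8 and 33.5 CPM (log2 change 0.82, SE 0.14, adjusted p = 0.00893). The interferon-inducible GTPases Igtp and Irgm1 changed by 2.74 (SE 0.46, adjusted p = 0.00867) and 3.28 (SE 0.58, adjusted p = 0.00928).

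**Figure D2:**
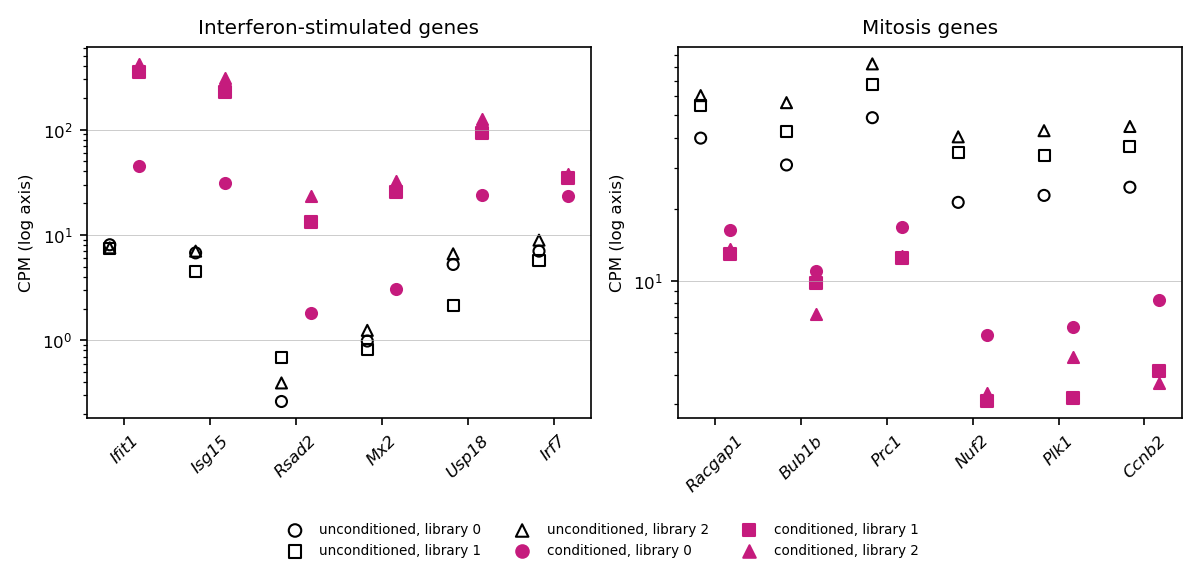
CPM on log axes of 6 interferon-stimulated genes (left) and 6 mitosis genes (right) in each of the 3 unconditioned (open) and 3 conditioned (filled) KO libraries, with the shape giving the library number. No conditioned value overlaps the unconditioned ones: Ifit1 lies at 7.46 to 8.06 CPM against 44.9 to 420.2 CPM, and Plk1 at 22.9 to 43.0 against 3.2 to 6.39 CPM.

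Stat2 and Irf9, at the head of the pathway, rose by less. Stat2 had 39.1, 42.8 and 56.3 CPM without and 85.4, 150.3 and 149 CPM with conditioning (log2 change 1.48, SE 0.34, adjusted p = 0.0207), and Irf9 28.2, 21.4 and 33.3 against 53.6, 97.1 and 117 CPM (log2 change 1.69, SE 0.30, adjusted p = 0.00942). The receptor subunits were not called: Ifnar1 had 103, 113 and 111 against 105, 139 and 145 CPM (log2 change 0.25, SE 0.13, adjusted p = 0.21), and Ifnar2 46, 74.8 and 71 against 44.5, 47.7 and 48.3 CPM (log2 change -0.45, SE 0.18, adjusted p = 0.1). For both subunits the groups overlapped. Ifit2, the 1 tested gene of the list not called, had 6.75, 10.3 and 11.1 against 9.47, 22.9 and 23.9 CPM (log2 change 1, SE 0.36, adjusted p = 0.0782), and it was called with the library number as a block (0.92, adjusted p = 0.0303, and adjusted p = 0.0685 over both genotypes). Fragments of the Ifit, Mx and Irgm families can be shared between similar copies, so the split between family members is uncertain.

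Class I antigen presentation, which shows peptides from inside the cell to T cells and is induced by interferons, had some members that rose. Of 15 genes 5 were higher and none lower, against 8.8% and 7.94% of all genes, with a median log2 change of 0.43, and no member was called without unconditioned library 1 or conditioned library 1. B2m, the invariant light chain, had 386, 349 and 615 CPM without and 909, 1059.7 and 1262 CPM with conditioning (log2 change 1.26, SE 0.25, adjusted p = 0.0122). All 3 conditioned values were above the unconditioned range. Tap1, a subunit of the peptide transporter, had 55.1, 42.2 and 51.3 against 82.8, 73 and 74.6 CPM (log2 change 0.63, SE 0.14, adjusted p = 0.0165), and Nlrc5, a transactivator of class I genes, 18.9, 5.2 and 7.99 against 31.3, 27.4 and 33.4 CPM (log2 change 1.52, SE 0.38, adjusted p = 0.0273). The nonclassical chain H2-T23 changed by 1.22 (SE 0.29, adjusted p = 0.0228). H2-K1, a classical chain that shares sequence with other H2 genes, had 71.7, 90.4 and 153 against 104, 236 and 340 CPM and did not pass the test (log2 change 1.11, SE 0.43, adjusted p = 0.0974), though it did with the library number as a block (1.03, adjusted p = 0.0326, and adjusted p = 0.0841 over both genotypes).

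Some chemokines rose and others fell. Of 20 genes 17 were tested, 4 were higher and 2 lower, against 8.8% and 7.94% of all genes, with a median log2 change of 0.14. None was called higher without any 1 of the libraries of number 1 or 2. Cxcl10, an interferon-induced attractant of activated T cells, rose from 0.982, 0.89 and 0.589 to 1.63, 4.38 and 9.46 CPM (log2 change 2.64, SE 0.67, adjusted p = 0.0284). Cxcl9, which shares its receptor, was called higher from very few fragments, 0, 1 and 1 without conditioning and 4, 76 and 72 with it. Ccl2, the main attractant of monocytes, had 60.9, 36.2 and 32.1 against 76.7, 89.5 and 73.2 CPM (log2 change 0.89, SE 0.25, adjusted p = 0.0402), and Ccl8 0.72, 0.205 and 0.196 against 0.784, 3.08 and 2.73 CPM (log2 change 2.53, SE 0.68, adjusted p = 0.034), a call lost with the library number as a block (2.42, adjusted p = 0.0536, and adjusted p = 0.0528 over both genotypes). The 2 that fell were Cxcl5, an attractant of neutrophils, with 507, 418 and 355 against 233, 230.4 and 210 CPM (log2 change -0.93, SE 0.18, adjusted p = 0.0119), and Cxcl14, with 538, 1933 and 1671 against 419, 279 and 113 CPM (log2 change -2.35, SE 0.56, adjusted p = 0.0235). The conditioned libraries lay outside the unconditioned range for all 6 of these chemokines.

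Many lysosome genes rose, and the list medians were alike in the 3 conditioned libraries. Lysosomes digest material inside the cell, a rotary proton pump acidifies them, and the Rag GTPases on their surface hold the growth kinase complex mTORC1 in place. Of 38 genes of lysosomal hydrolases and membrane proteins, 19 were higher and 1 lower (median log2 change 0.55, and 0.59, 0.64 and 0.55 in libraries 0, 1 and 2), against 8.8% higher and 7.94% lower over all genes. Of 18 proton pump subunits measured, 16 were higher and none lower (median 0.99, and 0.84, 1.09 and 1.06 by library). Of 14 genes of the Rag GTPases, folliculin and the MiT/TFE factors, 8 were higher and none lower (median 0.73, and 0.68, 0.77 and 0.79 by library). Over the 6 fits that left out 1 KO library these counts of higher genes ranged from 13 to 22, from 12 to 17 and from 7 to 9.

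Promoters of Rragb, a Rag GTPase, and Gla, the enzyme alpha-galactosidase A, are shown as the genes with the largest rise, in these 3 lists, whose windows hold TCACGTG (searched on both strands, in capitals), the core of the motif that the factors Tfeb, Tfe3 and Mitf bind at lysosome genes.
Rragb, chrX:153139708-153140007, plus strand: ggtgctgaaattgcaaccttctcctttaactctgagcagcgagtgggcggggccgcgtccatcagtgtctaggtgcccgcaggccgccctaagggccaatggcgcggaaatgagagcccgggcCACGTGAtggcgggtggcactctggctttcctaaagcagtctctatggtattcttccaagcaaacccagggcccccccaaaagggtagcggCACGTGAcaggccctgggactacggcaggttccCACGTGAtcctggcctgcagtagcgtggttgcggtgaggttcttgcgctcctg
Gla, chrX:134600956-134601255, minus strand: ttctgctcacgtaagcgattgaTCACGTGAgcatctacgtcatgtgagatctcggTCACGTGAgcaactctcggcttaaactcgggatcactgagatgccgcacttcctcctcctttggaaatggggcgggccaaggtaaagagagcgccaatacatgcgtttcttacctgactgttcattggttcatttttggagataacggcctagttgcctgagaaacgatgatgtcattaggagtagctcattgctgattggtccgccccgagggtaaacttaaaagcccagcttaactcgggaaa

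The window of Rragb held 3 matches and that of Gla 4, where each of the runs in capitals matches on both strands. Over the 3 lists, 55 of 70 genes had RefSeq promoters, in 67 windows, of which 17 (25.4%) held the motif, against 3.77% of all promoter windows. Tfeb itself had 4.39, 5.82 and 6.22 CPM without and 4.89, 4.8 and 2.78 CPM with conditioning (log2 change -0.40, SE 0.28, adjusted p = 0.335), Tfe3 85.6, 65.9 and 59.5 against 72.3, 64.3 and 66 CPM (log2 change -0.06, SE 0.13, adjusted p = 0.778), and Mitf 11.2, 8.83 and 9.17 against 9.89, 8.05 and 8.67 CPM (log2 change -0.13, SE 0.16, adjusted p = 0.566). In all 3 factors the groups overlapped.

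**Figure D3:**
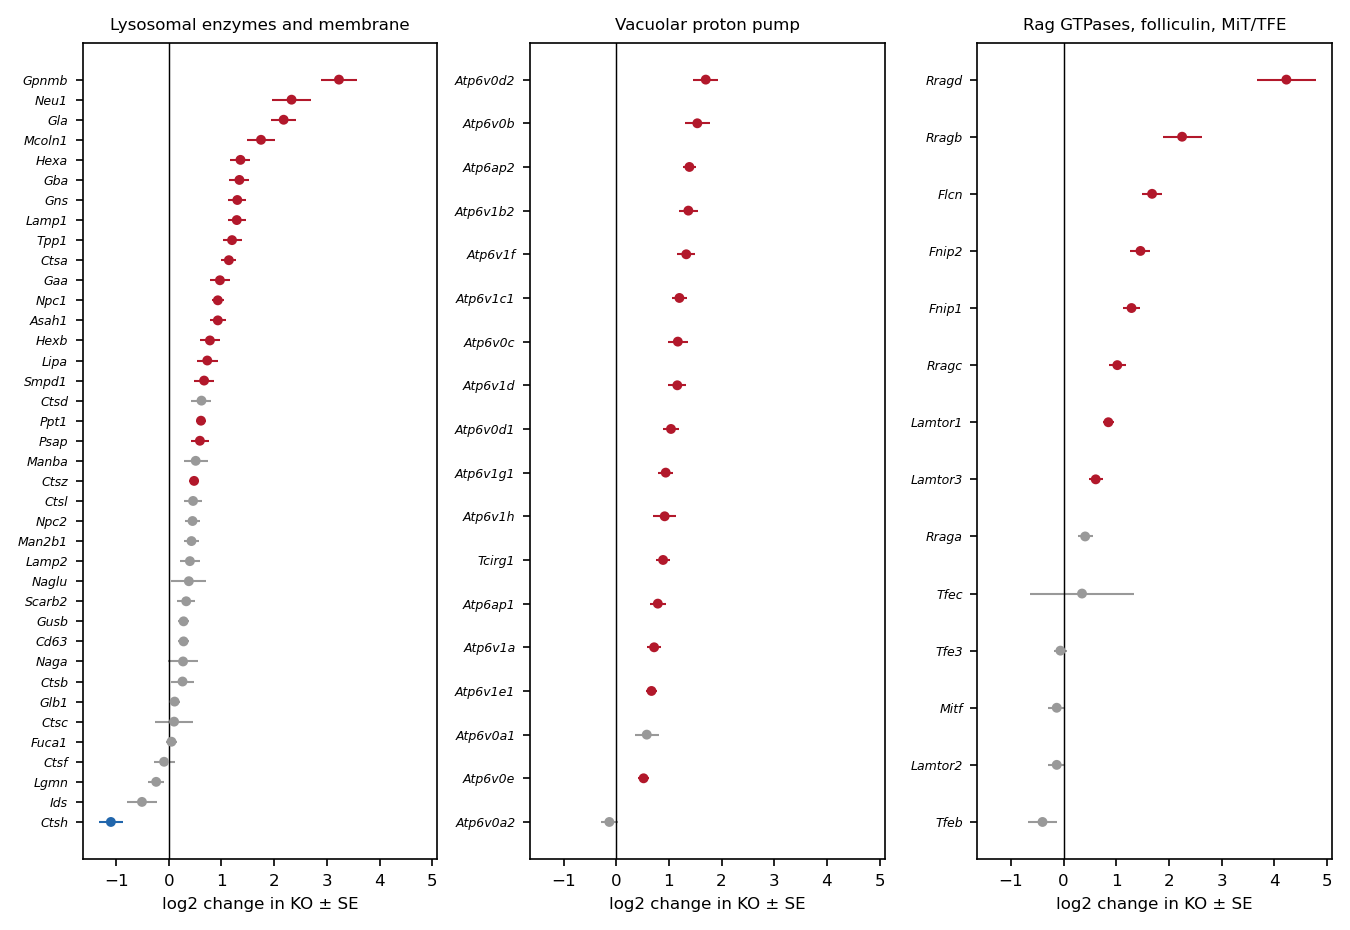
Log2 change (conditioned minus unconditioned KO libraries) with its SE for every tested gene of 3 lists. Red points were called higher, the blue point (Ctsh) lower and grey points were not called; Rragd (4.23) and Gpnmb (3.23) lie farthest to the right, and Tfeb, Tfe3 and Mitf are grey.

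Among the enzymes and membrane proteins, Gpnmb, a glycoprotein of lysosomes and related organelles also known as osteoactivin, rose most. It stood at 94.8, 39.4 and 37.7 CPM without conditioning and 619, 559 and 440.1 CPM with it (log2 change 3.23, SE 0.35, adjusted p = 0.00407), so all 3 conditioned libraries rose to a like level. Gla had 38.5, 24.2 and 26.6 against 113, 143 and 149 CPM (log2 change 2.18, SE 0.24, adjusted p = 0.00407). Lamp1, an abundant protein of the lysosomal membrane, had 939, 704 and 707 against 1741, 2024 and 1978 CPM (log2 change 1.29, SE 0.17, adjusted p = 0.00467). For each of these genes the highest unconditioned library was below the lowest conditioned one by a wide margin. Neu1, a sialidase, rose from 10.9, 14 and 14.4 to 30, 84.2 and 83.6 CPM (log2 change 2.33, SE 0.37, adjusted p = 0.00776), and Mcoln1, a calcium channel of the lysosome, from 24.4, 21.2 and 19.1 to 46.5, 86.3 and 85 CPM (log2 change 1.75, SE 0.26, adjusted p = 0.00595). Hexa, a subunit of the ganglioside-degrading hexosaminidase, changed by 1.36 (SE 0.19, adjusted p = 0.00525), Ctsa, a protease that stabilises Neu1, by 1.14 (SE 0.14, adjusted p = 0.00458), and Npc1, which exports cholesterol from lysosomes, by 0.93 (SE 0.11, adjusted p = 0.00456). The 1 member that fell was the protease Ctsh, with 52.5, 71.1 and 70.6 against 42.5, 26.5 and 21.8 CPM (log2 change -1.10, SE 0.23, adjusted p = 0.0148), and its call was lost without any 1 of the KO libraries of number 1 or 2.

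In the proton pump, the accessory subunit Atp6ap2 had the smallest p of the list. It stood at 86.1, 87.7 and 90 CPM without and 190.2, 255 and 246 CPM with conditioning (log2 change 1.39, SE 0.13, adjusted p = 0.00355). Of the cytosolic, ATP-splitting part, Atp6v1c1 changed by 1.20 (SE 0.15, adjusted p = 0.00464), Atp6v1f by 1.33 (SE 0.17, adjusted p = 0.00467) and Atp6v1b2 by 1.37 (SE 0.18, adjusted p = 0.00467). Atp6v0d2, a subunit of the membrane part typical of osteoclasts, was scarce, at 1.11, 1.57 and 1.31 against 3.56, 5.15 and 4.36 CPM (log2 change 1.70, SE 0.24, adjusted p = 0.00533). The 2 members not called were both forms of the large membrane subunit. Atp6v0a1 had 67.9, 46.8 and 41.5 against 103, 72.6 and 58.6 CPM (log2 change 0.58, SE 0.23, adjusted p = 0.107), which was called with the library number as a block (0.58, adjusted p = 0.0189, and adjusted p = 0.0967 over both genotypes), and Atp6v0a2 106, 94.5 and 96.8 against 116, 80.5 and 75.5 CPM (log2 change -0.13, SE 0.16, adjusted p = 0.592). Tcirg1, another form of that subunit, rose from 50.6, 41.6 and 40.6 to 71, 91.1 and 84.1 CPM (log2 change 0.89, SE 0.14, adjusted p = 0.00708).

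Of the Rag proteins, which act as pairs of Rraga or Rragb with Rragc or Rragd, Rragd rose most (chromosome 4, 32982998 to 33022180). It stood at 3.41, 1.51 and 2.1 CPM without conditioning and 14.8, 55.8 and 61.9 CPM with it (log2 change 4.23, SE 0.56, adjusted p = 0.00467), above the unconditioned range in every library. Rragb had 1.77, 1.1 and 1.18 against 3.44, 8.11 and 7.72 CPM (log2 change 2.25, SE 0.37, adjusted p = 0.00794) and Rragc 119, 107 and 114 against 176, 242 and 271 CPM (log2 change 1.02, SE 0.16, adjusted p = 0.00781). Rraga did not pass the test, at 122, 112 and 116 against 122, 158 and 185 CPM (log2 change 0.41, SE 0.14, adjusted p = 0.0694). Flcn (folliculin), which acts on Rragc and Rragd, changed by 1.68 (SE 0.19, adjusted p = 0.00456), and its partners Fnip1 and Fnip2 by 1.29 (SE 0.16, adjusted p = 0.00458) and 1.46 (SE 0.19, adjusted p = 0.00467). Lamtor1, the anchor of the complex in the lysosomal membrane, changed by 0.85 (SE 0.11, adjusted p = 0.00467).

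Autophagy, which delivers cell contents to lysosomes, moved less uniformly. Of 18 genes 4 were higher and 2 lower, with a median log2 change of 0.27. Sqstm1 (p62), a cargo adaptor, had 291, 288 and 321 CPM without and 408, 870 and 964 CPM with conditioning (log2 change 1.32, SE 0.28, adjusted p = 0.0165), and library 0 rose least. Map1lc3b, which tags the growing membrane, had 121, 93.5 and 90.2 against 161, 162 and 153 CPM (log2 change 0.64, SE 0.14, adjusted p = 0.0168), while its relative Map1lc3a fell from 48.1, 71.8 and 72 to 41.3, 42.5 and 44.8 CPM (log2 change -0.58, SE 0.16, adjusted p = 0.0339). Uvrag changed by 0.81 (SE 0.11, adjusted p = 0.00525), the adaptor Optn by 0.67 (SE 0.13, adjusted p = 0.0118) and the lipid-binding protein Wipi1 by -1.30 (SE 0.39, adjusted p = 0.0483). Without conditioned library 1, and without either unconditioned library 1 or 2, 1 gene of the list was called higher and none lower. Without conditioned library 0, 8 were higher and 2 lower, against 3317 and 3168 of all 15158 genes.

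Other genes with the largest rises belong to different processes. Ppargc1a, a coactivator that promotes the making of mitochondria, stood at 1.24, 1.23 and 1.7 CPM without conditioning and 9.05, 45.7 and 52 CPM with it (log2 change 4.67, SE 0.65, adjusted p = 0.00521). Hvcn1, a voltage-gated proton channel, rose from 1.11, 1.44 and 2.95 to 8.57, 28.8 and 27.8 CPM (log2 change 3.56, SE 0.59, adjusted p = 0.00826), and Cd200r4, a member of a family of immune receptors, from 1.05, 1.03 and 0.458 to 4.4, 12.7 and 13.3 CPM (log2 change 3.58, SE 0.48, adjusted p = 0.00467). In these 3 genes every conditioned library exceeded the unconditioned ones. Hey1, a target of Notch signalling, had 1.11, 0.548 and 0.589 against 1.45, 13.4 and 15.9 CPM (log2 change 3.76, SE 0.74, adjusted p = 0.0123), and Iyd, an enzyme that recovers iodide in the thyroid, 0.655, 0.342 and 0.0655 against 0.965, 15.3 and 14.4 CPM (log2 change 4.82, SE 1.02, adjusted p = 0.0162). For Hey1 and Iyd conditioned library 0 was barely above the highest unconditioned library, so most of the rise was in libraries 1 and 2.

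Mitosis genes fell, with low list medians in each conditioned library. Of 32 genes of mitosis and cytokinesis 32 were tested and 32 were lower, against 7.94% of all genes called lower, with a median log2 change of -2.32. In all 32 the 3 conditioned libraries lay below the 3 unconditioned ones, as in 15% of all tested genes. The list median was -1.93, -2.44 and -2.32 on the log2 scale in libraries 0, 1 and 2. All 32 were called without conditioned library 0 and without unconditioned library 0. Without unconditioned library 1 or 2 the counts were 25 and 24, while without conditioned library 1 or 2 they were 8 and 25. The promoters of Plk1, a kinase that drives entry into mitosis, and Ccnb2, cyclin B2, are shown as the list members with the largest fall whose windows hold both motifs searched. Capitals mark TTTGAA, the core of the cell cycle homology region, and CCAAT, the box bound by NF-Y, on either strand.
Plk1, chr7:122159185-122159484, plus strand: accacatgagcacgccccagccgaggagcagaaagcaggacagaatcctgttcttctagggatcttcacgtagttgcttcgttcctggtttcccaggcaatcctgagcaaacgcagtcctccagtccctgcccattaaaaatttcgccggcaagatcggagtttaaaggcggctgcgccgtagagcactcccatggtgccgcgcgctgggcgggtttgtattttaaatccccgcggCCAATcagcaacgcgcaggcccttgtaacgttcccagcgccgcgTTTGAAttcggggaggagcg
Ccnb2, chr9:70421505-70421804, minus strand: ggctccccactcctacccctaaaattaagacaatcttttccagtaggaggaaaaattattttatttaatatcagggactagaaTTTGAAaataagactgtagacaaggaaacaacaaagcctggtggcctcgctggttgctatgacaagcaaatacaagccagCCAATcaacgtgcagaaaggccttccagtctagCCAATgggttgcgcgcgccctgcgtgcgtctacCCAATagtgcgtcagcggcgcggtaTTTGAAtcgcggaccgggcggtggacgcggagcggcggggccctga

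TTTGAA was found in 23 of 29 promoter windows of this list (79.3%; 27 of 32 genes matched) and in 17.9% of all windows. CCAAT was also found in 23 of the 29, and in 37.4% of all windows. The window of Plk1 held 1 match to each motif, and that of Ccnb2 2 to TTTGAA and 3 to CCAAT.

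Plk1 stood at 22.9, 33.8 and 43 CPM without conditioning and 6.39, 3.2 and 4.73 CPM with it (log2 change -2.80, SE 0.48, adjusted p = 0.00902). Ccnb2 had 24.8, 36.7 and 44.8 against 8.26, 4.15 and 3.68 CPM (log2 change -2.73, SE 0.50, adjusted p = 0.0104). In both genes unconditioned library 0 was the lowest of its group and conditioned library 0 the highest of its own, with a wide gap between the groups. Racgap1, which organises the division furrow, had 40, 54.9 and 60.5 against 16.3, 12.9 and 13.6 CPM (log2 change -1.86, SE 0.29, adjusted p = 0.00747), and Bub1b, a spindle checkpoint protein, 30.8, 42.5 and 56.5 against 11, 9.77 and 7.25 CPM (log2 change -2.21, SE 0.35, adjusted p = 0.00772). Prc1, which bundles the spindle midzone, changed by -2.24 (SE 0.36, adjusted p = 0.00794), the kinetochore protein Nuf2 by -2.97 (SE 0.48, adjusted p = 0.00796) and the mitotic kinase Cdk1 by -1.93 (SE 0.33, adjusted p = 0.00902). Mki67, the proliferation antigen Ki-67, had 119, 161 and 195 against 34, 29.1 and 34.9 CPM (log2 change -2.27, SE 0.44, adjusted p = 0.0118).

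Some DNA replication genes fell. Of 34 genes of replication and the G1/S step, 13 were lower and none higher, against 7.94% and 8.8% of all genes, with a median log2 change of -0.87, and the list median was -1.17 in library 0 and -0.77 and -0.72 in libraries 1 and 2. Centred on the mean of the 6 KO libraries, the list medians were 0.16, 0.53 and 0.59 without conditioning. With it they were -0.82, -0.32 and -0.28, so library 0 was the lowest in both media. Ccna2, the cyclin of S and G2 phases, had 41.3, 86.2 and 109.7 CPM without and 14.5, 9.59 and 8.98 CPM with conditioning (log2 change -2.84, SE 0.44, adjusted p = 0.00708), with a wide gap between the groups. Tk1, thymidine kinase, had 6.94, 11.8 and 15.3 against 2.71, 1.6 and 1.73 CPM (log2 change -2.49, SE 0.49, adjusted p = 0.0128). The replication proteins Rpa2, Pold1 and Lig1 changed by -1.25, -1.08 and -1.13 (SE 0.22, 0.20 and 0.21; adjusted p = 0.00907, 0.0105 and 0.0111). Rrm1, which makes deoxynucleotides, changed by -0.75 (SE 0.14, adjusted p = 0.0118) and Ccne1, cyclin E1, by -0.87 (SE 0.18, adjusted p = 0.0153). Without any 1 library of number 1 or 2 from 2 to 6 genes of the list were called lower. Of 20 inhibitors of the cell cycle and p53 targets, 1 was higher and 2 lower, with a median of 0.07. Cdkn1a (p21), the inhibitor that p53 induces, had 1184, 719.7 and 566 against 1480.3, 1091 and 913 CPM with overlapping groups (log2 change 0.50, SE 0.27, adjusted p = 0.21), and was called with the library number as a block (0.54, adjusted p = 0.0267, and adjusted p = 0.104 over both genotypes). Trp53inp1, a p53 target, had 304, 188 and 165 against 419, 385 and 297 CPM (log2 change 0.75, SE 0.22, adjusted p = 0.0462), Gadd45b changed by -1.26 (SE 0.30, adjusted p = 0.0244) and the inhibitor Cdkn2c by -0.77 (SE 0.19, adjusted p = 0.0274). These 3 calls were lost without any 1 library of number 1 or 2.

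Several genes that glucocorticoids induce fell. Glucocorticoids bind the receptor Nr3c1, which then acts as a transcription factor. Of 20 such genes 10 were lower and none higher, against 7.94% and 8.8% of all genes (median log2 change -1.30, and -0.89, -1.18 and -1.17 by library), and 5 to 12 were called lower in the 6 fits that left out 1 KO library. Fkbp5, a chaperone that damps the receptor, stood at 93.2, 119.9 and 122 CPM without conditioning and 16, 17.2 and 19.3 CPM with it (log2 change -2.67, SE 0.36, adjusted p = 0.00467), and reached a like level in all 3 libraries. Tsc22d3 (GILZ), a mediator of the anti-inflammatory action, had 90.3, 102 and 103 against 47.8, 26.2 and 30.8 CPM (log2 change -1.50, SE 0.20, adjusted p = 0.00481), and Pdk4, which spares glucose, 18.2, 30.5 and 27.9 against 8.63, 7.17 and 5.67 CPM (log2 change -1.84, SE 0.24, adjusted p = 0.00467). For these 3 genes the groups were far apart. Zbtb16, a transcription factor, had 19.8, 23.2 and 19.3 against 5.25, 1.36 and 1.1 CPM (log2 change -3.02, SE 0.72, adjusted p = 0.0235). Angptl4, which blocks lipoprotein lipase, changed by -1.47 (SE 0.22, adjusted p = 0.00676) and the factor Cebpd by -1.14 (SE 0.26, adjusted p = 0.0214). The clock gene Per1 did not pass (log2 change -0.79, SE 0.28, adjusted p = 0.0726), and Nr3c1 had 99.8, 85 and 92.7 against 126, 92.8 and 79.1 CPM with overlapping groups (log2 change 0.10, SE 0.16, adjusted p = 0.669).

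The 12 largest falls, among called genes with a mean of at least 5 CPM, held several secreted proteins. Serpina3n (chromosome 12, 104406708 to 104414329), a secreted protease inhibitor of the acute phase, stood at 279, 781 and 675 CPM without conditioning and 59.3, 23.7 and 11.2 CPM with it (log2 change -4.21, SE 0.63, adjusted p = 0.00631). Its neighbour Serpina3m had 8.97, 37.7 and 32 against 0.603, 0.0592 and 0 CPM (log2 change -6.90, SE 0.99, adjusted p = 0.00533). The Serpina3 genes are close copies of each other, so the split between them is uncertain. Haptoglobin (Hp), an acute-phase protein of plasma, had 6.29, 30.8 and 36.3 against 5.49, 1.48 and 1.1 CPM (log2 change -3.19, SE 0.74, adjusted p = 0.0213), and A2m, a broad protease trap, 14, 17.3 and 21.5 against 4.34, 1.01 and 0.473 CPM (log2 change -3.19, SE 0.63, adjusted p = 0.0123). For Hp unconditioned library 0 was close to conditioned library 0, whereas for A2m the groups were clearly apart. Il1rn, the natural antagonist of the IL-1 receptor, had 5.5, 27.2 and 43.4 against 1.15, 2.25 and 2.68 CPM (log2 change -3.64, SE 0.69, adjusted p = 0.0118). Avpr1a, a vasopressin receptor, had 11.7, 64.4 and 76.4 against 4.89, 1.72 and 1.05 CPM (log2 change -4.32, SE 0.72, adjusted p = 0.0081), and Apln, the vasoactive peptide apelin, 27.2, 106 and 105 against 12.2, 3.44 and 1.26 CPM (log2 change -3.82, SE 0.75, adjusted p = 0.0126). In these 3 genes unconditioned library 0 was well under unconditioned libraries 1 and 2. Ism1, a secreted protein, changed by -3.19 (SE 0.57, adjusted p = 0.0101), Galnt16, an enzyme of protein glycosylation, by -3.34 (SE 0.53, adjusted p = 0.00767), the small heat shock protein Hspb7 by -3.24 (SE 0.56, adjusted p = 0.0091) and Fam65c by -3.18 (SE 0.55, adjusted p = 0.00908). Unconditioned library 0 was the lowest of its group in 12 of the 12 falls, and conditioned library 0 the highest of its group in 10. Of the 6 fits that left out 1 KO library, all 6 called Serpina3m, Serpina3n, Avpr1a and Galnt16. Il1rn, Hspb7, Ism1 and Fam65c were called in 5 fits, A2m and Apln in 3, and Hp and Sfrp1 in 2.

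Some collagens and enzymes that modify them fell. Of 27 genes tested, 14 were lower and none higher, against 7.94% and 8.8% of all genes, with a median log2 change of -0.91 and medians of -0.61, -0.87 and -1.30 by library. From 2 (without conditioned library 1) to 19 (without conditioned library 0) were called lower in the 6 fits that left out 1 library. In those 2 fits 114 of 15106 and 3168 of 15158 of all genes were lower. Col11a1, which nucleates the fibrils of the main collagens, stood at 1582, 2826 and 3239 CPM without and 896, 722 and 706 CPM with conditioning (log2 change -1.72, SE 0.26, adjusted p = 0.00676). Col6a1 and Col6a2, chains of a beaded collagen around cells, had 2468, 2951 and 3260 against 1372, 673 and 547 CPM (log2 change -1.74, SE 0.31, adjusted p = 0.0102) and 1550.2, 1689.8 and 1891 against 784, 452 and 384 CPM (log2 change -1.66, SE 0.26, adjusted p = 0.00693). The groups did not overlap for these chains. Lox, which crosslinks collagen, had 6359, 10357 and 9740.4 against 3346, 1315 and 999 CPM (log2 change -2.22, SE 0.44, adjusted p = 0.0125), and Plod2, which prepares collagen for crosslinking, 724, 764 and 706 against 479, 341 and 299.7 CPM (log2 change -0.97, SE 0.18, adjusted p = 0.011). The chains of type I collagen, the bulk of bone matrix, did not pass: Col1a1 had 12155, 20383 and 21504 against 10567, 9753 and 7599.8 CPM (log2 change -0.95, SE 0.37, adjusted p = 0.0974) and Col1a2 7973, 18703 and 20431 against 7498, 11385 and 9036 CPM (log2 change -0.75, SE 0.44, adjusted p = 0.243). Col3a1, of soft connective tissue, did not pass either, with a log2 change of -1.38 (SE 0.48, adjusted p = 0.0741). For all 3 of these chains unconditioned library 0 was well under unconditioned libraries 1 and 2.

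Among small leucine-rich and matricellular proteins 21 were tested, of which 1 was higher and 5 lower (median log2 change -0.85). From 1 to 10 were lower in the fits that left out 1 library, with 1 in each fit without a library of number 1 or 2. Tenascins differed in direction: Tnc, of remodelling tissue, had 1433, 1783 and 1928 CPM without and 586, 527 and 459.7 CPM with conditioning (log2 change -1.71, SE 0.25, adjusted p = 0.00595), while Tnxb, of loose connective tissue, rose from 1.9, 1.16 and 0.786 to 8.26, 12.3 and 7.3 CPM (log2 change 2.85, SE 0.44, adjusted p = 0.00688). Thbs1 (thrombospondin) had 3538, 4197 and 4615 against 2725, 1262 and 1000 CPM (log2 change -1.31, SE 0.34, adjusted p = 0.0316). The fibril-binding proteoglycan Fmod changed by -1.11 (SE 0.32, adjusted p = 0.0427), a call lost with the library number as a block (-1.11, adjusted p = 0.0574, and adjusted p = 0.0562 over both genotypes), and Prelp by -1.86 (SE 0.47, adjusted p = 0.0293). Tnn (tenascin N), a matrix protein of bone-forming layers, had 609, 292 and 210 against 69.7, 4.5 and 1.42 CPM (log2 change -3.88, SE 1.19, adjusted p = 0.0505) and was called with the block (-5.27, adjusted p = 0.0129, and adjusted p = 0.0421 over both genotypes).

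Of 29 matrix proteases and inhibitors tested, 2 were higher and 5 lower, with a median of -0.23. Adamts4, which cuts the proteoglycan aggrecan, had 41.3, 67.6 and 68.4 CPM without and 26.1, 16.2 and 13.4 CPM with conditioning (log2 change -1.67, SE 0.29, adjusted p = 0.0091), and Adam12 390.2, 420.4 and 434 against 244, 132 and 94.1 CPM (log2 change -1.40, SE 0.29, adjusted p = 0.0144). Mmp23 changed by -1.08 (SE 0.23, adjusted p = 0.0164). Mmp14, a membrane-bound collagenase, rose from 654, 677 and 674 to 1270.3, 1384 and 1132 CPM (log2 change 0.92, SE 0.20, adjusted p = 0.017), while the inhibitor Timp1 fell from 2169, 2239 and 1912 to 1323, 490.2 and 398 CPM (log2 change -1.52, SE 0.44, adjusted p = 0.0445). The groups did not overlap for these 5 genes. Without any 1 library of number 1 or 2, at most 1 protease gene was called higher and 2 lower.

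Contractile genes had lower list medians in conditioned libraries 1 and 2 than in library 0. These genes build the actin bundles of smooth muscle and myofibroblasts. Of 18 genes 1 was higher and 3 lower (median log2 change -1.06), with list medians of -0.33, -1.38 and -1.87 in libraries 0, 1 and 2. Without conditioned library 0, 16 were lower, and with the library number as a block 14 in KO only and 1 over both genotypes. Over all genes these counts were 3168 of 15158, and 1842 and 965 of 15197. Acta2, smooth muscle actin, stood at 1354, 1259 and 1067 CPM without conditioning and 923, 211 and 146 CPM with it (log2 change -1.52, SE 0.59, adjusted p = 0.098). It was called without conditioned library 0 (-2.78, adjusted p = 0.000333) and with the block (-2.03, adjusted p = 0.0245, and adjusted p = 0.0954 over both genotypes). Tagln (transgelin) had 693, 496 and 359 against 429, 86.9 and 62.8 CPM (log2 change -1.42, SE 0.62, adjusted p = 0.134), and conditioned library 0 lay inside the unconditioned range. With the block it was called (-1.92, adjusted p = 0.0174, and adjusted p = 0.0997 over both genotypes). Cnn1 (calponin) had 35.2, 27.2 and 24.1 against 12.8, 1.84 and 1.16 CPM (log2 change -2.46, SE 0.74, adjusted p = 0.0485), Smtn (smoothelin) 58.5, 68.6 and 74.7 against 42.7, 38.4 and 38 CPM (log2 change -0.76, SE 0.15, adjusted p = 0.0123), and Mylk, the kinase of myosin light chains, 9.63, 42.5 and 49.8 against 9.59, 7.23 and 6.62 CPM (log2 change -2.12, SE 0.52, adjusted p = 0.0258). These 3 calls were lost without any 1 library of number 1 or 2. Synpo2, an actin-bundling protein, rose from 8.38, 3.83 and 3.93 to 11, 13 and 13 CPM (log2 change 1.20, SE 0.30, adjusted p = 0.027).

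Genes of glycolysis and the hypoxia response showed the same split. Of 35 genes 1 was higher and 7 lower (median -0.84), with medians of -0.21, -1.15 and -1.37 by library. Centred on the mean of the 6 KO libraries, the list medians were 0.72, 0.38 and 0.33 without conditioning. With it they were 0.3, -0.73 and -0.9, so library 0 was the highest in both media. Without conditioned library 0, 26 were lower, against 3168 of all 15158 genes. With the KO block 21 were lower and with the block over both genotypes 12, against 1842 and 965 of all 15197 genes. Without any 1 library of number 1 or 2, 1 to 3 were lower. Ldha, which makes lactate, had 1698, 1179 and 1128 CPM without and 1219, 306 and 209 CPM with conditioning (log2 change -1.21, SE 0.60, adjusted p = 0.174; with the block -1.63, adjusted p = 0.0368, and adjusted p = 0.0899 over both genotypes), and the glycolytic enzyme Pgk1 135, 119 and 102 against 95.2, 23.2 and 17.6 CPM (log2 change -1.39, SE 0.58, adjusted p = 0.117; with the block -1.80, adjusted p = 0.0323, and adjusted p = 0.0664 over both genotypes). Conditioned libraries 1 and 2 were far below the unconditioned libraries and library 0 close to them. Some members were low in all 3 conditioned libraries. Egln3, an oxygen sensor, had 29.7, 30.1 and 29.7 against 9.89, 9.06 and 10.6 CPM (log2 change -1.60, SE 0.29, adjusted p = 0.0106), and the glucose transporter Slc2a1 244, 197 and 202 against 129.9, 111 and 117 CPM (log2 change -0.84, SE 0.15, adjusted p = 0.0102). P4ha2, which hydroxylates collagen and is induced by hypoxia, had 370.5, 416 and 439.5 against 219.7, 119.6 and 123 CPM (log2 change -1.41, SE 0.23, adjusted p = 0.0081). Eno2, a form of enolase, rose from 12.1, 11 and 7.79 to 34, 27.6 and 21.4 CPM (log2 change 1.43, SE 0.20, adjusted p = 0.00533). Gapdh is a member, but the table gives it 3 to 13 fragments per library, far fewer than the 14965 to 30544 of Actb.

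**Figure D4:**
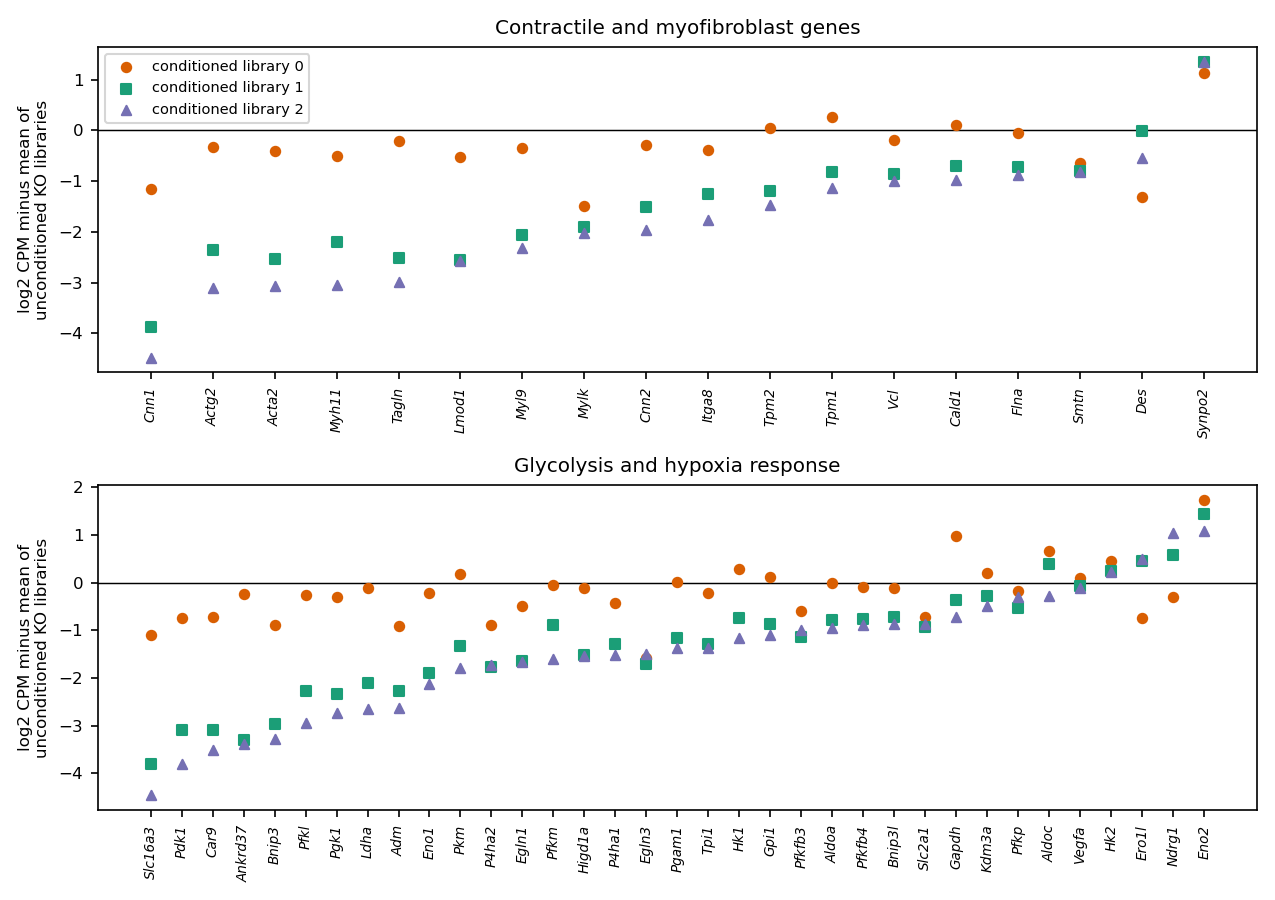
Log2 CPM of each conditioned KO library minus the mean of the unconditioned KO libraries for every tested contractile gene (top) and every tested glycolysis and hypoxia gene (bottom), ordered by library 2. Circles (library 0) lie near 0 for most genes, with a list median of -0.33 and -0.21, while squares and triangles (libraries 1 and 2) lie lower, with medians of -1.38 and -1.87 (top) and -1.15 and -1.37 (bottom).

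Pericytes wrap small vessels and share contractile genes. Of 10 pericyte markers and PDGF receptors 1 was higher and 4 lower, with a median of -0.61. Cspg4 (NG2) rose from 56.6, 60.9 and 66.3 to 120.1, 154 and 147 CPM (log2 change 1.19, SE 0.14, adjusted p = 0.00456), well above the unconditioned range in every library. Rgs5, Mcam and Kcnj8 fell, by -2.25 (SE 0.46, adjusted p = 0.0136), -0.66 (SE 0.16, adjusted p = 0.0267) and -2.77 (SE 0.79, adjusted p = 0.0414). Rgs5 and Kcnj8 were scarce, at most 3.6 CPM in any KO library. Without conditioned library 1, or without either unconditioned library 1 or 2, none was called lower.

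Osteoblast genes gave no common direction. Of 30 genes of osteoblast factors and mineralised matrix 25 were tested, and 1 was higher and 4 lower, with a median log2 change of 0.19. The 5 not tested, among them Dmp1, Mepe and Sost of bone-embedded osteocytes, had at most 13 fragments in any KO library. Enpp1, which makes the mineralisation inhibitor pyrophosphate, stood at 67.4, 89 and 70.2 CPM without and 38.5, 15.9 and 13.8 CPM with conditioning (log2 change -1.73, SE 0.34, adjusted p = 0.0122). Alpl, the alkaline phosphatase that removes it, had 32.9, 80.3 and 103 against 35.1, 18.2 and 14.2 CPM (log2 change -1.68, SE 0.47, adjusted p = 0.0376). For Alpl the groups overlapped, with library 0 nearly level between the media, and the call was lost with the library number as a block (-1.67, adjusted p = 0.0597, and adjusted p = 0.0648 over both genotypes). Pth1r, the receptor of parathyroid hormone, had 33.5, 32.6 and 35.1 against 27.9, 12.1 and 11.6 CPM (log2 change -0.97, SE 0.29, adjusted p = 0.0458), and Smpd3, a sphingomyelinase needed for mineralisation, 1.64, 1.51 and 1.7 against 0.543, 0.592 and 0.735 CPM (log2 change -1.36, SE 0.33, adjusted p = 0.0248). Bglap2, a copy of the osteocalcin gene, was called higher on few fragments, 5, 0 and 1 without and 13, 41 and 13 with conditioning. Runx2 did not pass (log2 change -0.18, SE 0.11, adjusted p = 0.275), nor did Sp7 (log2 change -1.45, SE 0.91, adjusted p = 0.276), which was low in conditioned libraries 1 and 2 and within the unconditioned range in library 0. Without unconditioned library 1 or conditioned library 1, no member was called.

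The balance of RANKL and its decoy sets how many osteoclasts, the bone-resorbing cells, form. Of 17 such stromal factors tested 1 was higher (Ccl2) and 1 lower, with a median of 0.03. Tnfsf11, which encodes RANKL, had 258, 331 and 341 CPM without and 138, 51.3 and 46.4 CPM with conditioning (log2 change -1.98, SE 0.46, adjusted p = 0.0214), and all conditioned libraries lay below the unconditioned range. Its call was lost without any 1 library of number 1 or 2. Tnfrsf11b, the decoy osteoprotegerin, had 29, 17.7 and 18.1 against 51, 21.4 and 27.4 CPM with overlapping groups (log2 change 0.62, SE 0.32, adjusted p = 0.191). Of 12 osteoclast markers 8 were tested and 3 were higher: Ctsk, Atp6v0d2 and Tcirg1, the latter pair being also proton pump subunits. Ctsk, a collagen-degrading lysosomal protease, had 105, 153 and 144 against 238, 395 and 378 CPM (log2 change 1.33, SE 0.24, adjusted p = 0.0104). Acp5 (TRAP), a defining enzyme, had 1.31, 2.05 and 1.77 against 1.63, 2.01 and 2.05 CPM (log2 change 0.15, SE 0.27, adjusted p = 0.72), Oscar, Calcr and Ocstamp were under 1 CPM and Dcstamp had no fragment in any KO library.

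Of 15 tested IL-6 family cytokines and receptors 3 were lower and none higher, with a median of -0.28. Il6st (gp130), the shared signal-transducing subunit, stood at 2571, 3207 and 3090 CPM without and 1397, 689 and 547 CPM with conditioning (log2 change -1.75, SE 0.32, adjusted p = 0.0107). Osmr, the oncostatin M receptor, had 517, 552 and 516 against 396, 328 and 339 CPM (log2 change -0.58, SE 0.11, adjusted p = 0.0118), and Socs3, the feedback inhibitor of the pathway, 169.6, 189 and 169 against 93, 44.2 and 30 CPM (log2 change -1.66, SE 0.35, adjusted p = 0.0159). The groups were apart for these 3 genes, and none was called without conditioned library 1. Il6 itself had 12.1, 57.4 and 48.8 against 13.9, 153 and 181 CPM (log2 change 1.56, SE 0.83, adjusted p = 0.203), with library 0 nearly level between the media and libraries 1 and 2 higher with conditioning. Without conditioned library 0 it was called (2.08, adjusted p = 0.0237). Of 21 tested NF-kB targets and cytokines 4 were lower and none higher (median -0.43): Il1rn, the NF-kB regulator Bcl3 at -0.89 (SE 0.17, adjusted p = 0.0118), the granulocyte growth factor Csf3 at -2.97 (SE 0.65, adjusted p = 0.0178) and the subunit Nfkb1 at -0.54 (SE 0.12, adjusted p = 0.0208). Without any 1 library of number 1 or 2, 1 or 2 of them were called. Tnf, Il1a, Il1b and Csf2 were not tested, with at most 5.5 fragments in any KO library.

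The integrated stress response, in which blocked translation raises Atf4 and its targets, split by library. Of 37 genes 4 were higher and none lower (median log2 change 0.27), with medians of -0.60 in library 0 and 0.47 and 0.67 in libraries 1 and 2. Without conditioned library 0, 12 were higher and 1 lower, against 3317 and 3168 of all 15158 genes. Atf3, a stress-induced factor with the largest rise among called genes of at least 5 CPM on average (chromosome 1, 191170297 to 191183333), stood at 1.57, 2.33 and 2.69 CPM without and 2.77, 78.8 and 178 CPM with conditioning (log2 change 5.30, SE 1.13, adjusted p = 0.0168). Ddit3 (CHOP) had 33.3, 63.7 and 61.5 against 64.1, 418 and 637 CPM (log2 change 2.82, SE 0.72, adjusted p = 0.0297), and Ppp1r15a (GADD34), which restores translation, 77.2, 75.6 and 62 against 84.7, 296 and 403 CPM (log2 change 1.87, SE 0.47, adjusted p = 0.0286). In these 3 genes conditioned library 0 lay just above the unconditioned range and libraries 1 and 2 far above it. Gdf15, a stress hormone, rose evenly, from 15.9, 13.2 and 13.8 to 23.9, 26.1 and 32.7 CPM (log2 change 0.95, SE 0.15, adjusted p = 0.00676), and was the 1 member still called without unconditioned library 1 or 2 or conditioned library 1 or 2. Atf4 had 269.7, 445 and 467 against 281, 530.1 and 636 CPM with overlapping groups (log2 change 0.29, SE 0.30, adjusted p = 0.516).

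Of 30 immediate early and AP-1 genes, 3 were higher and none lower, with a median of -0.10: Atf3, the nuclear receptor Nr4a3 at 3.46 (SE 0.73, adjusted p = 0.0164) and the AP-1 subunit Jund at 0.79 (SE 0.23, adjusted p = 0.044). None was called without any 1 library of number 1 or 2. Of 21 ER chaperones and unfolded protein response genes 4 were lower and none higher (median -0.34). Pdia6, an oxidative folding enzyme, had 745, 961 and 867 CPM without and 555, 373 and 377 CPM with conditioning (log2 change -0.98, SE 0.18, adjusted p = 0.011), Hsp90b1 (GRP94) 2184, 2789.6 and 2607 against 1794, 1205 and 1377 CPM (log2 change -0.79, SE 0.18, adjusted p = 0.021), and Xbp1, a factor of this response, 136, 205 and 199 against 114, 96.6 and 115 CPM (log2 change -0.73, SE 0.17, adjusted p = 0.0216). For the 3 named the conditioned libraries were all below the unconditioned ones. None was called without unconditioned library 1 or conditioned library 1.

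The counts of the signalling and metabolic lists that follow are small and are given for their single genes, not as changes of a list. In the IGF axis, 2 of 15 genes were higher and 1 lower (median -0.13). Igfbp5, the IGF-binding protein stored in bone matrix, had 414, 566 and 796 CPM without and 1121, 4492 and 3654 CPM with conditioning (log2 change 2.38, SE 0.48, adjusted p = 0.0136), and Igf2r, which carries IGF-II and enzymes to lysosomes, 765, 684 and 698 against 1247, 1196 and 1000.2 CPM (log2 change 0.68, SE 0.14, adjusted p = 0.0144). Igfbp7 fell from 322, 561 and 555 to 262, 178 and 159.6 CPM (log2 change -1.26, SE 0.24, adjusted p = 0.0118). All 3 differed in every conditioned library, but none was called without unconditioned library 1 or conditioned library 1. Igf1 had 43.2, 273 and 313 against 76.5, 93.9 and 33.7 CPM with overlapping groups (log2 change -1.62, SE 0.74, adjusted p = 0.146).

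Of 21 tested Wnt ligands, targets and antagonists 1 was higher and 4 lower (median -0.53). The secreted antagonist Sfrp1 had 112, 674 and 811 CPM without and 94.1, 71.4 and 28.7 CPM with conditioning (log2 change -3.04, SE 0.81, adjusted p = 0.0339), where library 0 differed little between the media, and the call was lost with the block (-2.85, adjusted p = 0.072, and adjusted p = 0.0518 over both genotypes). The ligand Wnt4 had 11.7, 12.7 and 13.9 against 4.77, 2.49 and 2.26 CPM (log2 change -2.01, SE 0.26, adjusted p = 0.00467). It was called in each of the 6 fits that left out 1 KO library, and without any 1 library of number 1 or 2 from 1 to 2 genes of the list were lower. The Wnt inhibitor Nkd2 changed by -2.27 (SE 0.45, adjusted p = 0.0129) and the antagonist Sostdc1 by -2.32 (SE 0.56, adjusted p = 0.0242), while the decoy Frzb rose, by 0.90 (SE 0.19, adjusted p = 0.0164). Of 26 BMP and TGF-beta genes 2 were higher and 2 lower (median -0.25, and 0.34, -0.66 and -1.06 by library): Tgfb2 at 0.82 (SE 0.17, adjusted p = 0.0157), Bmp6 at 1.07 (SE 0.25, adjusted p = 0.0234), the latent TGF-beta binding protein Ltbp2 at -1.46 (SE 0.35, adjusted p = 0.0235) and the activin trap Fst at -1.63 (SE 0.49, adjusted p = 0.0491). None of these was called without any 1 library of number 1 or 2. Without conditioned library 0, 4 of the 26 were higher and 10 lower, against 3317 and 3168 of all 15158 genes. Id3, a direct BMP target, had 282, 362 and 369 against 264, 97 and 99.7 CPM (log2 change -1.14, SE 0.35, adjusted p = 0.0505; with the block -1.31, adjusted p = 0.0318, and adjusted p = 0.0507 over both genotypes).

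Of 23 tested genes of adipogenesis and lipid handling 3 were higher and 3 lower (median 0.19), near the 8.8% and 7.94% of all genes. Apoe, a lipid carrier, had 20, 13.6 and 16.2 CPM without and 54.8, 98.2 and 89.2 CPM with conditioning (log2 change 2.28, SE 0.30, adjusted p = 0.00467), higher in every library, and the fatty acid receptor Cd36 and the enzyme Elovl6 changed by 1.24 (SE 0.31, adjusted p = 0.0278) and 1.31 (SE 0.36, adjusted p = 0.036). Fabp4, a fatty acid carrier of adipocytes, fell from 8.45, 30.4 and 37.7 to 5.43, 2.19 and 2.78 CPM (log2 change -2.88, SE 0.52, adjusted p = 0.0102), beside Angptl4 and Cebpd. From 1 to 6 were higher and 1 to 3 lower in the fits that left out 1 library. Of 25 cholesterol synthesis genes none was called in either direction, with a median of -0.06. At an unadjusted p under 0.05 there was 1, and DESeq2 called 1 higher. Without conditioned library 0, 2 were higher and 2 lower, against 3317 and 3168 of all 15158 genes.

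Of 32 oxidative stress and NRF2 targets 1 was higher and 3 lower (median -0.18). Ftl1, the ferritin light chain that stores iron, had 1122, 812 and 744 CPM without and 2389, 1868 and 1879 CPM with conditioning (log2 change 1.20, SE 0.21, adjusted p = 0.0099), above the unconditioned range in every library. Extracellular superoxide dismutase (Sod3) changed by -1.52 (SE 0.40, adjusted p = 0.0306) and glutathione reductase (Gsr) by -1.03 (SE 0.28, adjusted p = 0.036), while Nfe2l2, the gene of NRF2, did not pass (log2 change 0.57, SE 0.18, adjusted p = 0.0505). Without conditioned library 0, 12 were lower, against 3168 of all 15158 genes, and without any 1 library of number 1 or 2 none was. Of 15 tested cartilage genes 1 was higher and none lower (median -0.72). The chondrocyte factor Sox6 changed by 0.69 (SE 0.12, adjusted p = 0.0096), and Col2a1, the main collagen of cartilage, had 1576, 1795 and 2288 against 1503, 692 and 605 CPM (log2 change -1.02, SE 0.34, adjusted p = 0.0664; with the block -1.13, adjusted p = 0.0493, and adjusted p = 0.0868 over both genotypes).

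Marker lists of other cell types differed in level. Of 18 tested macrophage and leukocyte markers 1 was higher (Cybb, on 0, 5 and 1 fragments without and 18, 18 and 9 with conditioning) and none lower, with a median of 0.51, and the pan-leukocyte gene Ptprc had 0.458, 0.274 and 0.131 against 0.603, 1.54 and 0.788 CPM (log2 change 1.73, SE 0.54, adjusted p = 0.052; with the block 1.71, adjusted p = 0.0496, and adjusted p = 0.0846 over both genotypes). Of 8 tested endothelial markers 3 were higher and none lower (median 0.50), and none was called without any 1 library of number 1 or 2. They were Kdr, a receptor of VEGF, with 2.36, 0.479 and 0.589 against 2.77, 7.46 and 6.72 CPM (log2 change 2.30, SE 0.66, adjusted p = 0.0416; lost with the block at 2.40, adjusted p = 0.0544, and adjusted p = 0.0735 over both genotypes), Tek at 1.28 (SE 0.36, adjusted p = 0.0381) and Vwf at 1.54 (SE 0.43, adjusted p = 0.0376). The 5 defining endothelial markers summed to 6.03, 3.83 and 4.19 CPM without and 7.72, 14.3 and 14.9 CPM with conditioning, with Pecam1 and Emcn under 1 CPM throughout. Of 9 tested glial and meningeal markers 1 was higher and none lower (median 0.39): Ptgds, a prostaglandin synthase, with 0, 3 and 1 fragments without and 3, 93 and 88 with conditioning. No keratinocyte marker (of 9 tested, median -0.56) and no skeletal muscle marker (of 20, median -0.22) was called by edgeR or DESeq2, and 0 had an unadjusted p under 0.05. The 5 smooth muscle and pericyte markers summed to 2111, 1823 and 1497 CPM without conditioning and to 1475, 453 and 357 CPM with it, and the 3 cartilage markers to 1782, 1964 and 2504 against 1726, 809 and 733 CPM. Their part in the falls of contractile and matrix genes was not tested.

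The genes by which conditioned library 0 differed most from libraries 1 and 2 are given as a description, with no test. It was highest above both in Pcp4l1, Txnip, Serpinb2, Tnn, Klk8, Draxin, Sp7 and Baalc. Txnip, a thioredoxin inhibitor induced by glucose, had 285, 451 and 296 CPM without and 210, 7.4 and 1.47 CPM with conditioning, so library 0 lay near the lowest unconditioned value and libraries 1 and 2 far below it. Baalc had 26.1, 19.4 and 19.6 against 16.9, 2.01 and 1.26 CPM and Draxin, a guidance protein of axons, 25, 20.5 and 17.7 against 28.2, 2.72 and 0.263 CPM, with library 0 again far above libraries 1 and 2. For Pcp4l1 (24.5, 3.83 and 2.69 against 10.8, 0.118 and 0.0525 CPM), Serpinb2, a protease inhibitor (34.3, 2.53 and 2.1 against 8.26, 0.237 and 0.0525 CPM), and Klk8, a serine protease (12.3, 4.86 and 3.8 against 11.2, 0.711 and 0.158 CPM), unconditioned library 0 was also the highest of its group. For Tnn, Draxin, Sp7 and Baalc unconditioned library 0 was likewise the highest of its group, while for Txnip it was the lowest. Conditioned library 0 was lowest against both others in Chchd10, Atf3, Ppef1, Chrdl1, Ostn, Iyd, Lin7a and Il6. Chchd10, a mitochondrial protein, had 0.524, 2.4 and 2.95 against 1.45, 64.2 and 72.5 CPM and the phosphatase Ppef1 0.982, 1.44 and 1.05 against 1.15, 26.6 and 31.1 CPM, with library 0 within the unconditioned range. Chrdl1, a BMP antagonist (1.83, 32.1 and 54.4 against 4.4, 98.4 and 88.5 CPM), and Ostn (osteocrin, 1.38, 14.4 and 17.2 against 2.53, 46.4 and 44 CPM) were low in library 0 of both media. Lin7a had 3.01, 6.51 and 5.5 against 1.75, 20.8 and 23 CPM. Unconditioned library 0 was also the lowest of its group in Chchd10, Atf3, Ppef1, Lin7a and Il6, but the highest in Iyd.

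The KO response was then set beside the WT response, which rests on 2 distinct unconditioned and 3 conditioned libraries. A sample titled WT carries the KO genotype label and was kept as WT. Of the genes called higher in KO, 96.8% had a positive log2 change in WT, and of those called lower 97.9% had a negative one, against 71.9% of all tested genes with the same sign in both. In WT 243 genes (1.6%) were called, 166 higher and 77 lower, of which 160 and 73 were called the same way in KO and none the opposite way. A gene called in KO and not in WT is not thereby shown to differ. In the test of the difference between the genotypes' responses no gene was called by edgeR (smallest adjusted p = 0.822) or by DESeq2, and 489 genes (3.22%) had an unadjusted p under 0.05. Without conditioned KO library 0, 1429 genes were called in that test, and without both KO libraries of number 0, 2705. The count thus depends on that library, which lay within the range of the WT libraries on the first principal component.

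**Figure D5:**
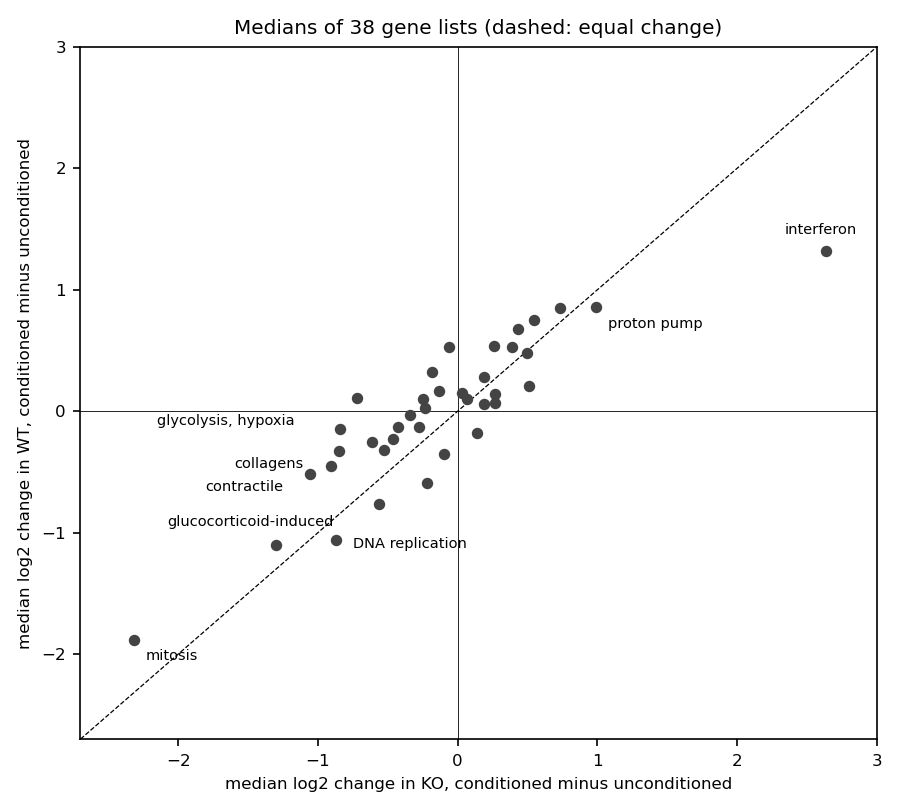
Median log2 change (conditioned minus unconditioned) of each of the 38 gene lists in KO (horizontal) and WT (vertical) libraries, with the dashed line marking equal change. Mitosis (-2.32 in KO, -1.88 in WT) and the proton pump (0.99 and 0.86) lie near the line, and interferon-stimulated genes (2.64 and 1.32) lie to its right.

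By list, the lysosomal enzymes (median 0.55 in KO and 0.75 in WT), proton pump (0.99 and 0.86) and Rag GTPases (0.73 and 0.85) had near medians, with 14, 10 and 6 members called higher in WT. Mitosis genes had medians of -2.32 and -1.88, with 3 called lower in WT, and glucocorticoid-induced genes -1.30 and -1.10, with 5. The interferon list had 2.64 and 1.32, with none called in WT. For the difference, 6 of its 35 genes had an unadjusted p under 0.05 (edgeR), against 3.22% of all tested genes, and none was called. The same 3.22% is the background of the like counts that follow. Of 32 NRF2 targets, with medians of -0.18 and 0.32, 7 did so. Contractile genes had -1.06 and -0.52, and glycolysis and hypoxia genes -0.84 and -0.15, with 0 members of either list under an unadjusted p of 0.05. The genes with the smallest p for the difference are given next, and none of them was called. Mrpl2, a mitochondrial ribosomal protein, had a log2 change of -0.20 in KO and 0.49 in WT, Mthfd1l, of mitochondrial folate metabolism, of -1.27 and -0.51, and Hspa12a of -0.37 and 0.64. Tmem256, Dtx4, Tmem42, the iron exporter Slc40a1 and superoxide dismutase 1 (Sod1) followed on the side where KO was lower, and the unadjusted p of these 8 genes ran from 0.00217 to 0.0107. Where KO was higher, Med12l had a log2 change of 1.06 in KO and 0.17 in WT and Angptl4 of -1.47 and -2.59. Wdr53, Hmgn5, the lipid transfer protein Mttp, Gpatch4, Supt4a and Cadm3 followed, and the unadjusted p of these 8 ran from 0.0067 to 0.013.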

How the data were processed

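The tools named in the submitters' processing notes are CASAVA 1.8.2, TopHat2 2.0.9, Cufflinks and Cuffdiff 2.1.1, with mm10 (GRCm38). TruSeq RNA v2 libraries, which do not mark the strand, were made from RNA with an integrity number over 7.5, per the labels, so overlapping antisense genes cannot be told apart. The values are the estimated counts (expected counts of fragments per gene and library) that the authors deposited, unscaled per the file headers, and rounded here. The FPKM that the authors deposited, scaled per the file headers, served only for 2 alternative fits. Symbols and positions came from the authors' promoter test table, whose distance column was not used. The authors' deposited transcript table holds q-values. Of 25511 genes, 1714 have no symbol (2.69% to 3.1% of fragments) and were kept.

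Of the 12 libraries, unconditioned WT libraries 0 and 1 differed by less than counting noise (chi-square 760.5 on 15476 degrees of freedom; 91.86% of 17534 genes equal to the last digit) and were used as 1, leaving 11. One sample titled WT carries the KO genotype label and was kept by its title. The tables number libraries from 0 and the titles from 1, and nothing ties the numbers.

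Fragments were fitted with edgeR 4.0.16 in R 4.3.3 (TMM, filterByExpr, robust quasi-likelihood, 4 groups, 7 residual degrees of freedom, biological coefficient of variation 0.237) and tested over 15197 genes with Benjamini-Hochberg adjustment, called under 0.05. SE was taken from the log2 change and the F statistic (the change over the root of F). The steps were tested on simulated counts with known changes, drawn independently for each library with no library set apart. That test does not cover data in which library 0 stands apart. Alternatives used DESeq2 1.42.0 and limma 3.58.1. In KO, deviations from the group means correlated by 0.349, 0.219 and 0.309 across genes for equal library numbers and by -0.35 to 0.272 for unequal ones. Conditioned library 1 correlated more with unconditioned library 2 (0.272) than with unconditioned library 1 (0.219). These correlations thus set number 0 apart but do not resolve number 1 from number 2. Deviations within a group sum to 0, which lowers the values of unequal numbers where those of equal numbers are positive. The titles also share numbers across the media without saying what they mark. In WT the merged unconditioned libraries 0 and 1 correlated by -0.127 with conditioned library 0 and by 0.437 with conditioned library 1. Unconditioned WT library 2 correlated by 0.402 with conditioned library 2. With 2 distinct unconditioned libraries the deviations mirror each other, so these values cannot settle whether the numbers pair in WT.

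The groups and the 38 lists were chosen with earlier results of these data known. Genes were named by rule: the 12 largest rises and falls among called genes with 1 symbol, 5 CPM and no overlap of groups; up to 4 members per list with the smallest p, and its head members; the PAR family; the 8 genes highest and lowest in conditioned library 0; and the 8 smallest p on each side of the KO and WT difference. Members beyond these were chosen after their values were seen. Some genes under this rule are not reported here. Positions start 1 base after the authors' files, which then equal the RefSeq start for 10784 of 21956 genes.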

Additional observations from a re-analysis of the deposited data

How the results depend on the processing

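Of the 4269 values of the 226 named genes under 19 alternatives, 80% kept direction and side of the threshold, 16.6% lost the call, 3.14% gained it and 9 reversed. All 9 belonged to genes not called: Tfe3 (-0.17 to 0.11 when 1 KO library was left out, 0.06 without both libraries 0), Nr3c1 (-0.10 to 0.25, and -0.05), Tmem256 (-0.06 to 0.25, and -0.11), Acp5 (-0.01 to 0.30), Pcp4l1 (-6.82 to 0.15) and Serpinb2 (-6.46 to 0.28). Of 342 list medians, over the 6 fits that left out 1 KO library, DESeq2's size factors and the 2 other filters on low counts, 316 moved by less than the spread and 26 by more. The spread is the SD of the list's medians in the 3 conditioned libraries, and it is wide where library 0 lies apart. The contractile median went from -1.06 to -1.62 without conditioned library 0, which was less than its spread. The count therefore cannot show that lists are stable against that library. The 6 KO libraries alone called 285 genes higher and 294 lower, and DESeq2 called 1844 and 1850. Leaving out 1 KO library gave 211 to 3317 genes higher, 114 to 3168 lower and 0 to 1429 in the difference between genotypes. Without both KO libraries of number 0 these were 3643, 3618 and 2705. The causes were not tested.

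The replicate block by library number over both genotypes called 887 genes higher and 965 lower, and lost 18 named calls at adjusted p of 0.0503 to 0.0735 (Alpl, Ccl8, Cnn1, Cxcl10, Elovl6, Fmod, Fst, Hp, Jund, Kdr, Map1lc3a, Mylk, Prelp, Ptgds, Sfrp1, Tek, Thbs1 and Vwf). The block in the KO libraries only (added after seeing the data) called 1693 higher and 1842 lower, 5 named calls were lost and 13 gained, as given beside those genes, and it changed no other call. The 6 KO libraries alone with the block, with few residual degrees of freedom, called 0 higher and 0 lower (smallest adjusted p 0.0523; 4323 genes at an unadjusted p under 0.05).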

Other observations

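Y-linked and X-inactivation transcripts, which mark the sex of the animals in a culture, set library 2 apart in both KO groups. Ddx3y stood at 35.8, 38.3 and 90.4 CPM in the unconditioned KO libraries 0, 1 and 2 and at 36.9, 33.2 and 76.2 CPM in the conditioned ones, so library 2 was the highest of both groups. Libraries 0 and 1 were close to each other and changed order between the media. Uty had 9.24, 8.22 and 22.5 CPM against 10.8, 12 and 36.6 CPM. Xist, expressed from the inactive X chromosome, was lowest in library 2, with 529.9, 634 and 299 CPM against 674, 882 and 396 CPM. Xist and Y-linked transcripts were both present in every KO library.

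The authors' deposited table of transcript tests lists 2209 of 20272 tested transcripts as significant between the KO groups, 987 higher and 1222 lower in conditioned medium, and 1162 of 20544 between the WT groups.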
